A study of Mus musculus with 28 samples.

Results

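The nuclear genes that encode the mitochondrial respiratory chain and the ATP synthase were followed across mouse CD4+ T cells cultured with or without TGF-β and IL-4, the cytokine pair that drives Th9 cells. Members were all genes of the RNA-seq table whose symbol begins with Nduf, Uqcr, Sdha to Sdhd, Cox4 to Cox8, or Atp5. The rule found 94 of 24089 genes. By symbol, 38 were placed in complex I, 4 in complex II, 8 in complex III, 18 in complex IV and 17 in complex V. The other 9 are assembly factors whose symbols begin with Ndufaf or Sdhaf. The rule takes gene symbols alone, so it also takes relatives such as Atp5s and Atp5sl, which were counted with complex V by symbol only. It leaves out chain components with other names and all genes of the mitochondrial genome.

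Complexes I to IV carry electrons from NADH and succinate to oxygen. Complexes I, III and IV pump protons across the inner mitochondrial membrane, and complex V, the ATP synthase, uses the returning protons to make ATP. Each complex is built from many subunits in fixed proportion, and T cells that leave the resting state enlarge both this machinery and glycolysis.

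RNA-seq of polyA RNA gave 24 libraries, 3 for each of 8 conditions. For WT and KO cells the study describes mice with floxed Tgfbr1 alleles and Ert2-cre, on the C57BL/6 background. They were given oil (WT) or tamoxifen, which deletes Tgfbr1, the gene of TGF-β receptor I (KO). The DNase-seq titles name oil or tamoxifen, while the RNA-seq titles say only WT or KO. The study also lists floxed mice with Cd4-cre. In the Ert2-cre design both genotypes carry the floxed alleles and the inducible Cre, which is not restricted to T cells. The effect of tamoxifen itself then cannot be told apart from the loss of the receptor. The study used young adult mice of both sexes. Naive CD4+ CD62L+ cells were stimulated with antibodies to CD3 and CD28 and received no cytokine (control), TGFb, IL4 or TGFb+IL4. The culture time of these libraries is not given in the sources used here. DNase-seq, which maps open chromatin, gave 1 library each for WT control, WT TGFb+IL4, KO control and KO TGFb+IL4. The labels number the libraries 1 to 3 within each genotype and condition, and all 4 DNase-seq libraries are of number 3. They do not say whether a number stands for a mouse, so p-values measure the spread between these samples, which may be technical.

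The columns of the RNA-seq table were read by position, in the order of the library numbers, because their headings conflict with read counts that accompany the study. Of 8 WT libraries with such counts, all 8 matched the column at their position, with at least 99.8% of the compared genes alike in being at 0 or above 0, and only 2 matched the column of their heading. The next best column reached at most 85.8%. For the other 16 columns, 4 of WT and all 12 of KO, no such counts were used here, so they were assigned by the order alone. Reading by heading assigns 20 of 24 columns to another condition or replicate. Under it, limma called none of the 85 to 87 tested members at an adjusted p under 0.05 in any comparison but KO against WT control, where it called 1 member. Over all genes it then called none of the 9755 to 9825 tested in any WT comparison, and at most 78 in the others. Between 0 and 26 members per comparison had an unadjusted p under 0.05 when read by heading. All values below follow the positions.

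By position, Tgfbr1 stood between 13.9 and 20.7 RPKM in the WT cultures with TGFb, between 3.02 and 3.94 in those without and between 2.32 and 5.18 in all KO cultures, and the ranges of KO control and WT control overlapped. A gene-level value does not resolve the deleted part of Tgfbr1. RPKM divide a gene's reads by its length and by library size. By position, Gata3 stood between 8.51 and 9.58 RPKM in KO control and between 7.09 and 9.09 in KO TGFb. It stood between 58.8 and 71.4 in KO IL4 and between 59.0 and 77.3 in KO TGFb+IL4. These ranges do not tell KO control from KO TGFb, KO IL4 from KO TGFb+IL4, or replicates from each other. Defining T cell markers were high in every library (summed RPKM of 6 genes, 1035 to 1469), whereas Cd8a and Cd8b1 summed to 14.3 to 36.3, 4 B cell markers to 7.89 to 33.3, 5 myeloid markers to 0.232 to 18.4 (Csf1r, Itgam, Cd14 and Emr1 each under 1 in every library), 2 NK cell markers to 0.558 to 5.35 and 3 erythroid markers to 0.0155 to 21.98 (Hbb-b1 and Alas2 each under 1 in every library). Their part in the results was not tested. KO TGFb+IL4 replicate 2 stood apart, with the lowest correlations with its group (0.989 for log2 values over all genes, against at least 0.994 in the other groups) and with members' values lower by a median of 0.19 on the log2 scale than in the other 2 libraries. Calls and shares that rest on that library are given with and without it. In bulk RNA, a change in transcript per cell and a change in the mix of cells cannot be told apart.

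Respiratory chain genes were among the abundant transcripts of these cells. In WT control, the members summed to 27709 ± 531 RPKM (SD, n = 3), 4.12% of the RPKM of all genes. Of the 94 members, 71 had a mean over 24 libraries of at least 100 RPKM and 85 of at least 1, and 4 were at 0 in all libraries. The median over the members with a mean of at least 1 was 206 RPKM in complex I, 189 in complex II, 388 in complex III, 541 in complex IV and 544 in complex V, against 20.6 for the assembly factors, which help to build complexes I and II but are not part of them. Subunits of one complex thus did not share one transcript level. Within complex I, as placed by symbol, the range ran from 43.7 RPKM for Ndufs1 to 686 for Ndufa4. Ndufs1 carries iron-sulfur clusters of the electron path. Ndufa4 is a small protein named for complex I and since reassigned to complex IV, so it was counted here by symbol only.

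The most abundant member was Atp5b, the catalytic beta subunit of the ATP synthase, with a mean of 1324 RPKM and 1335, 1355 and 1202 RPKM in the 3 WT control libraries. Under WT TGFb+IL4 its values were 1306, 1362 and 1294 RPKM, which overlapped those of the control. Atp5a1, its alpha partner, had 679, 689 and 650.1 RPKM in WT control and 668, 712 and 681 in WT TGFb+IL4, again overlapping. Cox4i1, the ubiquitous form of a regulatory subunit of cytochrome c oxidase, led complex IV with a mean of 966 RPKM. Uqcr10 led complex III with 615, Sdhb, the iron-sulfur subunit of succinate dehydrogenase, led complex II with 342, and Ndufaf2, an assembly factor of complex I, led the assembly factors with 57.3. Of the core of complex I, Ndufv1, which binds NADH, had 128, 128 and 126 RPKM in WT control and Ndufs1 had 42.0, 40.4 and 40.3.

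Where a subunit has tissue-specific forms, T cells used 1 of them almost alone. Cox4i1 made up at least 99.9% of the Cox4 RPKM in each of 24 libraries, Cox6a1 at least 99.9% of Cox6a, Cox6b1 at least 99.7% of Cox6b, and Cox8a 100% of Cox8. The muscle forms Cox6a2 and Cox7a1, the testis form Cox6b2 and the lung form Cox4i2 each had a mean under 1 RPKM over the 24 libraries. Listed at 0 in every library were Cox7b2, Cox8b, Cox8c and Ndufs5. Ndufa4l2 was at 0 in at least 12 libraries. Ndufs5 is an exception among these, since it encodes a complex I subunit of all tissues, and with no counts in the table it can only be said to be listed at 0. The start of Ndufs5 (chr4:123389953-123395445, minus strand) lay at a DNase I hypersensitive site (DHS) in all 4 DNase-seq lists, ranked within the top 1.58% of sites by fold enrichment in WT control.

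2 subunits with several abundant forms had a mix whose group means differed between cultures, and these shares were not tested. Cox7a2l, also called Scaf1, is a relative of Cox7a2 that has been described as joining complexes III and IV into supercomplexes. Whether its product does so in the mouse strain used here was not tested, and RPKM do not show it. The share of Cox7a2l in Cox7a RPKM was 23.4% in WT control, 27.6% in WT TGFb, 23.2% in WT IL4 and 31.8% in WT TGFb+IL4. In KO the share was 23.7% in control, 23.99% in TGFb, 25.3% in IL4 and 26.6% in TGFb+IL4. The 3 KO TGFb+IL4 libraries had 23%, 33.5% and 23.3%, so that without replicate 2 the mean was 23.1%, while the 3 WT TGFb+IL4 libraries had 31.1%, 31.7% and 32.6%. Atp5g1, Atp5g2 and Atp5g3 encode the same mature c subunit of the ATP synthase. Atp5g1 held 47.6% of their RPKM in WT control and 40.9% in WT TGFb+IL4, whereas Atp5g2 held 31.5% and 37.3%. In KO control and KO TGFb+IL4, Atp5g1 held 43.0% and 40.5%, and Atp5g2 held 35.6% and 37.1%. Single libraries ran from 37.3% to 52.4% for Atp5g1 and from 27.6% to 39.1% for Atp5g2. The 3 genes are alike in sequence, so reads could be split between them and these shares are uncertain.

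DNase-seq showed open chromatin at the starts of nearly all expressed members in all 4 conditions. Of 91 members with a position in the GENCODE vM1 annotation of mm9, 84 had a DHS within 500 bp of the annotated start in each of the 4 lists, and these were the same genes in every list. Atp5d, Cox4i2, Cox6a2, Cox7b2, Cox8b, Cox8c and Ndufa4l2 had one in none. Among the 82 members with a mean of at least 1 RPKM the count was 81 (98.8%) in each list. The share was 82.5% to 86.8% over all 9049 genes with a mean of at least 1 RPKM. These genes were not matched to the members' levels. Atp5d was the exception, with 679, 699.7 and 592 RPKM in WT control. The annotated start is the outer end of the gene record, and whether Atp5d is transcribed from another start was not tested. The lists held between 27145 and 44298 DHSs, and with 1 library per condition no difference between conditions has a replicate check.

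The DHSs at the members' starts ranked high by fold enrichment among all DHSs of their list. Ranks at the starts of other expressed genes are not given here, so high ranks are not shown to be particular to the members. Over the 81 members with a mean of at least 1 RPKM, their median rank was in the top 7.94% of the WT control list, 9.36% of WT TGFb+IL4, 8.23% of KO control and 10.7% of KO TGFb+IL4. Cox7a1 and Cox6b2, near 0 in RPKM, had a DHS at their start in all 4 lists too, at ranks of 15.3% and 50.6% in WT control. The DHS at the start of Ndufv3 ranked at 1.02% in WT control and 4.16% in WT TGFb+IL4, and that of Cox7a2l at 26.5% and 25.6%.

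The 250 bases before 8 starts are shown to place the starts of Cox7a1, Cox7a2l and Ndufv3, on which the results below turn, beside 1 member with a match to each of 5 motifs. Of the latter, Cox6c and Atp5h were also called higher with TGFb. They were read from the NCBIM37 (mm9) genome, 5′ to 3′ on the strand of the gene. Capitals mark matches on either strand to the motif letters CCGGAAG (ETS factors), GCATGCGC (NRF1, a regulator of respiratory genes), AAGATGGC (YY1), TCAAGGTC (the ERR nuclear receptors) and TTCNNNGAA (STAT factors). In order, the windows lie at chr7:30968940-30969189, plus strand, chr17:83913674-83913923, minus strand, chr17:31656810-31657059, plus strand, chr8:123191940-123192189, plus strand, chr5:115798991-115799240, minus strand, chr11:115281277-115281526, minus strand, chr15:35868002-35868251, minus strand and chr11:53244334-53244583, minus strand.
Cox7a1: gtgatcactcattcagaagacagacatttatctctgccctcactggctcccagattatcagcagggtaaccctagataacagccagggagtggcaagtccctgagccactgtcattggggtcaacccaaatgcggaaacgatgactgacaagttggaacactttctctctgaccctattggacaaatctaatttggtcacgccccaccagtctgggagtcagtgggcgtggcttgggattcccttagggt
Cox7a2l: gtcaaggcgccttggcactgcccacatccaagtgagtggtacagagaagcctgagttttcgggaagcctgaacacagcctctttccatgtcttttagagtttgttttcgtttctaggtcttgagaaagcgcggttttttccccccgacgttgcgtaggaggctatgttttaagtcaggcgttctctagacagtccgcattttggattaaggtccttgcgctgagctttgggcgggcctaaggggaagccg
Ndufv3: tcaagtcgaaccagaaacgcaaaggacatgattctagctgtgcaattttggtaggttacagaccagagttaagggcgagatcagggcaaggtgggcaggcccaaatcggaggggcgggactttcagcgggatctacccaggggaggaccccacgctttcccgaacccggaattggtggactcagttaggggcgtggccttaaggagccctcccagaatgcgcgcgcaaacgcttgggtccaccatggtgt
Cox4i1: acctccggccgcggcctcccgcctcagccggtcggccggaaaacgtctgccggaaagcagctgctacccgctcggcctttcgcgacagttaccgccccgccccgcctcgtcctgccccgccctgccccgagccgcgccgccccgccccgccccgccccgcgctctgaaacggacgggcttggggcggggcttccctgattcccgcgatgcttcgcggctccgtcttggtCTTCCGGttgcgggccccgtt
Cox6a1: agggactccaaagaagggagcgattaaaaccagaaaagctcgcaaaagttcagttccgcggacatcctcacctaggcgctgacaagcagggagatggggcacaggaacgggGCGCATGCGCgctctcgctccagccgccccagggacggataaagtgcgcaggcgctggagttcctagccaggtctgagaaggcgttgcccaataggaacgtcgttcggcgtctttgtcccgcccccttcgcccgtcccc
Atp5h: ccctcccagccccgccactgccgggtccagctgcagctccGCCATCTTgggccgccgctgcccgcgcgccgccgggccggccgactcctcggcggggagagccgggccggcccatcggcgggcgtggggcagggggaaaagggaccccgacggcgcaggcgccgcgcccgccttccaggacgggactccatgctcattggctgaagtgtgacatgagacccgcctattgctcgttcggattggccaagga
Cox6c: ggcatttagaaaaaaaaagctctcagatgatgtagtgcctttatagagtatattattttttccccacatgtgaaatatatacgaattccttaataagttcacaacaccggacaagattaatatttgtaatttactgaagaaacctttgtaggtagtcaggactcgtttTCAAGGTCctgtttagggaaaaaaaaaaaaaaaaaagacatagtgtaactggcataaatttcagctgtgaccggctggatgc
Uqcrq: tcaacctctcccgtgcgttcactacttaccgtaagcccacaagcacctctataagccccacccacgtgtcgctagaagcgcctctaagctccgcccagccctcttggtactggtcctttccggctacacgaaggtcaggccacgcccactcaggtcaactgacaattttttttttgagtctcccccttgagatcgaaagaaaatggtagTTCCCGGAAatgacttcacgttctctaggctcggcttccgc

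None of these motifs was found in the windows of Cox7a1, Cox7a2l and Ndufv3. In Cox6a1 the NRF1 letters match on both strands at overlapping positions. Over the windows of 91 members, the ETS letters were found in 12 (13.2%), against 8.43% of 20761 gene starts. NRF1 letters were found in 7 members (7.69%, against 2.84% of all), ERR in 3 (3.30%, 0.891%) and STAT in 4 (4.40%, 6.82%). The YY1 letters were found in 1, Atp5h (1.10%, 1.49%), and the palindrome GTCTAGAC, bound by SMAD proteins, in none (0.140% of all). The 7 members with NRF1 letters were Atp5g2, Atp5l, Cox6a1, Cox8c, Ndufa11, Ndufa6 and Ndufaf4, and the ERR letters were in Atp5g3, Cox6c and Ndufs1. Members' windows held a median of 14 CpG sites, against 9 for all starts, at the same median GC content of 54.8%. The 20761 starts include those of genes not expressed in these cells. The shares were not set beside expressed genes alone or beside starts of like CpG count. A match of letters describes the sequence only.

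Across the 8 conditions the members' group means differed little. For each gene the highest group mean was divided by the lowest. This ratio had a median of 1.16 over the 85 members with a mean of at least 1 RPKM, and 1.33 over 9718 genes of the table filtered in the same way. It was under 1.2 for 55 members (64.7%) and for 22.3% of the genes. It was over 1.5 for 2 members (2.35%) and for 31.6% of the genes. Among genes of at least 100 RPKM, whose values are less noisy, the medians were 1.16 for members and 1.23 for all 1114 genes. The shares above are not matched for level, since 71 of the members reached 100 RPKM but most of the genes did not. Removal of redundant reads can lower values of very abundant genes, and its part in these ratios was not tested. Without KO TGFb+IL4 replicate 2 the ratio was under 1.2 for 56 of the 85 members. These ratios are a description, without a test, and subunits of one complex are not independent of each other.

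**Figure D1:**
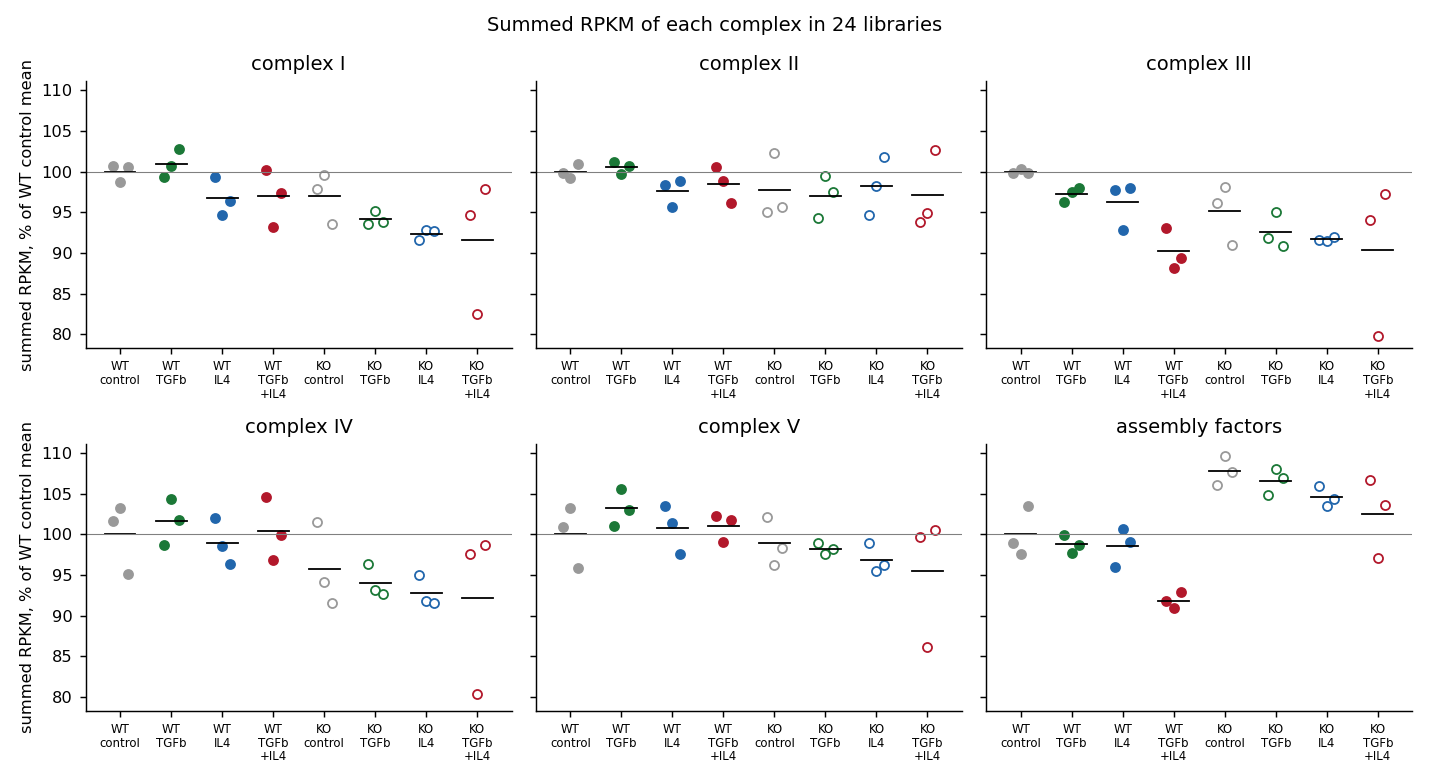
Summed RPKM of each complex and of the assembly factors in each library, as a percentage of the mean of the 3 WT control libraries. Each point is 1 library, filled for WT and open for KO, and the short lines are group means. Complex III stood at 90.2% in WT TGFb+IL4, the assembly factors at 91.9%, and the lowest open point in most panels is KO TGFb+IL4 replicate 2.

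Summed over all members, WT TGFb had 101% ± 1.71 (SD, n = 3) of the WT control level, WT IL4 98.5% ± 2.15 and WT TGFb+IL4 98.2% ± 2.74, all within about the spread of the control (100% ± 1.91). Complex III in WT had 97.2% ± 0.924 with TGFb, 96.2% ± 2.89 with IL4 and 90.2% ± 2.57 with TGFb+IL4, against 100% ± 0.241 in the control. In KO it had 95.1% ± 3.66 in control, 92.6% ± 2.15 with TGFb and 91.7% ± 0.265 with IL4, and its 3 KO TGFb+IL4 libraries had 94.1%, 79.8% and 97.2%, the 79.8% being replicate 2. The assembly factors in WT had 98.8% ± 1.14 with TGFb, 98.6% ± 2.40 with IL4 and 91.9% ± 1.02 with TGFb+IL4, against 100% ± 3.14 in the control. In KO they had 107.8% ± 1.82 in control, 106.6% ± 1.67 with TGFb, 104.6% ± 1.28 with IL4 and 102.5% ± 4.91 with TGFb+IL4. All members summed to 97.2% ± 2.64 in KO control, 95.4% ± 0.532 in KO TGFb, 94.1% ± 0.696 in KO IL4 and 93.1% ± 8.50 in KO TGFb+IL4, a spread that KO TGFb+IL4 replicate 2 widened (23098 RPKM, against 26859 and 27435 in the other 2 libraries).

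The first comparison asked what TGFb alone did in WT cells. Genes were tested with limma on log2(RPKM + 1). The study's thresholds, a change of more than 1.5 times at an adjusted p below 0.01 (Benjamini-Hochberg over all genes tested), gave the strict calls, and the wider calls were those at an adjusted p under 0.05 with no minimum fold. At the wider threshold 9 of 86 tested members were called, 8 higher and 1 lower, a share of 10.5%, while 20.3% of all genes tested were called (12.2% higher, 8.15% lower). The median change of the members was 0.017 on the log2 scale, beside 0.011 over all genes. Fewer members, 4 or 5, were called without WT control replicate 1 or 2 or without WT TGFb replicate 1 or 3. At the study's thresholds 1 member, Cox7a1, was called, against 5.71% of all genes.

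Ndufv3 is a small accessory subunit of the NADH-binding arm of complex I (chr17:31657060-31668266, plus strand). Its RPKM were 178, 169 and 167 in WT control and 199.99, 211 and 218 in WT TGFb. All 3 TGFb libraries lay above all 3 control libraries, with a log2 change of 0.29 ± 0.049 (SE), adjusted p = 0.00489. Ndufb11 is an accessory subunit of the membrane arm of complex I (chrX:20192452-20194745, minus strand). It had 162, 163 and 156 RPKM in control and 186, 194 and 189 with TGFb, without overlap (log2 change 0.24 ± 0.041 (SE), adjusted p = 0.00498). Cox7a2l (chr17:83901259-83913673, minus strand) had 105, 105 and 111 RPKM in control and 123, 131 and 136 with TGFb (log2 change 0.28 ± 0.05 (SE), adjusted p = 0.00626), and its groups did not overlap either. These 3 genes rose by 1.18 to 1.22 times.

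Cox7a1, the heart and muscle form of a complex IV subunit (chr7:30969190-30971047, plus strand), changed most, but at a level close to 0. Its RPKM were 0.327, 0.898 and 0.553 in WT control and 1.72, 1.62 and 2.04 in WT TGFb (log2 change 0.82 ± 0.13 (SE), adjusted p = 0.00365). It passed the filter of a mean of at least 1 RPKM only through the cultures in which it was high, so it had to differ to be tested. Its adjusted p rose to between 0.0111 and 0.0167 when WT control replicate 1 or 3 or WT TGFb replicate 1 or 3 was left out. Cox5a (log2 change 0.19, adjusted p = 0.0324), Cox6c (0.18, 0.0312), Ndufs3 (0.18, 0.0199) and Atp5h (0.15, 0.0368) also rose. Ndufs8, an iron-sulfur subunit of complex I, was the one member that fell, from 283, 279 and 269 to 246, 248 and 238 RPKM (log2 change -0.18 ± 0.042 (SE), adjusted p = 0.02). That call was lost without any of 4 libraries, WT control replicate 1 or 2 and WT TGFb replicate 1 or 3, with adjusted p between 0.0594 and 0.0939.

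IL4 alone called no member in limma at either threshold, of 85 tested, while 1.29% of all genes were called at the study's thresholds and 4.8% at an adjusted p under 0.05 (2.64% higher, 2.16% lower). 12 of the 85 members had an unadjusted p under 0.05, where 17.4% of all genes had, and the members' lowest adjusted p was 0.0678. Changes of single members ran from -0.23 to 0.19 on the log2 scale, with a median of -0.028. Their groups were small, so these values do not show that IL4 left the members unchanged.

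**Figure D2:**
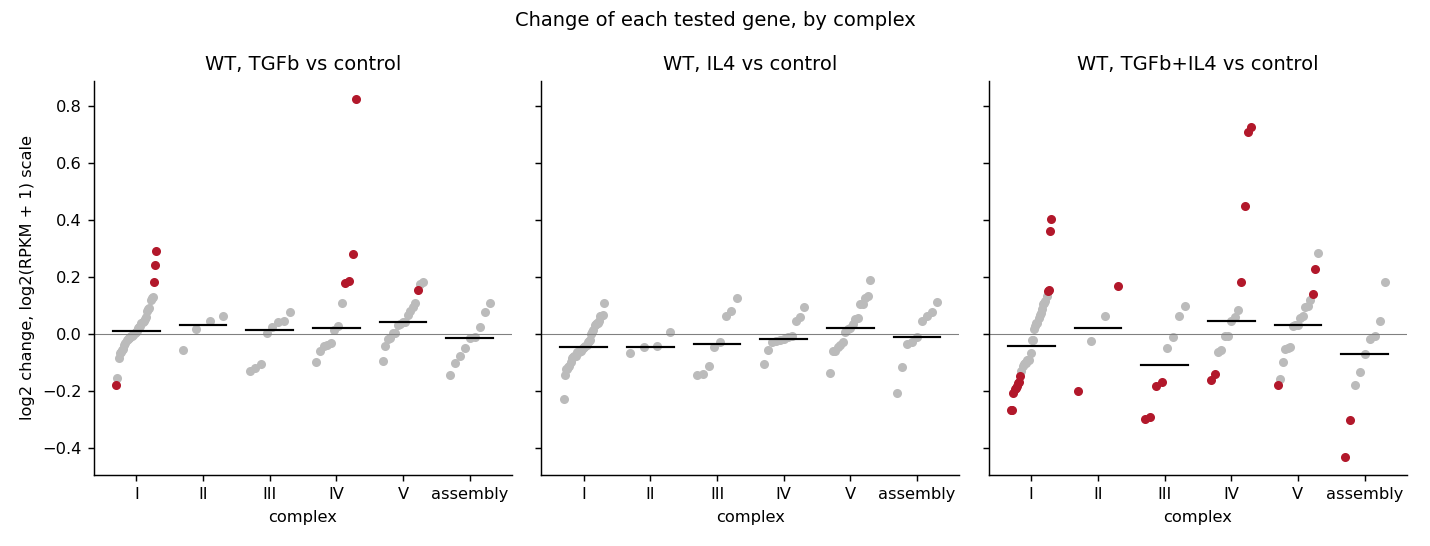
Log2 change of every tested member in WT cells with TGFb, IL4 or TGFb+IL4 against control, grouped by complex and sorted within each group. Each point is 1 gene, red where the adjusted p was under 0.05, and black lines are medians. With IL4 no point is red, and with TGFb+IL4 red points lie on both sides of 0 in complexes I, II, IV and V and only below 0 in complex III and the assembly factors.

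The 2 cytokines together gave more calls in both directions. With TGFb+IL4 against control, 30 of 87 tested members were called at an adjusted p under 0.05 (34.5%), below the 42.9% of all genes. 11 members were higher, against 24.4% of all genes, and 19 lower, against 18.5% of all genes. The count of 30 fell to 17 without WT control replicate 1, to 19 without WT TGFb+IL4 replicate 2 and to 15 without WT TGFb+IL4 replicate 3. The median change was -0.013 over the members and 0.025 over all genes, and no member but Cox7a1 and Cox6b2 passed a fold change of 1.5, against 9.27% of all genes at the study's thresholds. In complex I, 4 of 36 tested genes were higher and 9 lower, in complex II 1 and 1 of 4, in complex III 0 and 4 of 8, in complex IV 4 and 2 of 13, in complex V 2 and 1 of 17, and among the assembly factors 0 and 2 of 9. Every complex that had higher members thus also had lower ones. Of the 2 higher members in complex V, 1 was Atp5sl, placed there by symbol only. Marker sums differed between the same libraries: the T cell markers summed to 1154 to 1245 RPKM in WT control and 1405 to 1469 in WT TGFb+IL4, the myeloid markers to 3.53 to 6.20 and 7.10 to 16.7, the B cell markers to 14.4 to 22.5 and 15.7 to 33.3, Cd8a and Cd8b1 to 24.8 to 26.9 and 25.3 to 26.7, the NK cell markers to 2.11 to 2.30 and 1.51 to 2.03, and the erythroid markers to 0.152 to 21.98 and 0.128 to 0.254. Their part in these changes was not tested.

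The members that rose with TGFb+IL4 were led by those that rose with TGFb. Cox7a2l had 149, 136 and 153 RPKM with TGFb+IL4, above its control values given above without overlap (log2 change 0.45 ± 0.055 (SE), adjusted p = 0.000224). Ndufv3 had 246, 216 and 219 RPKM (0.40 ± 0.06 (SE), adjusted p = 0.000705) and Ndufb11 204, 201 and 212 (0.36 ± 0.045 (SE), adjusted p = 0.000261). The comparisons with TGFb and with TGFb+IL4 share the control libraries, so their likeness is in part built in. Sdha, the flavoprotein that oxidizes succinate, went from 148, 146 and 149 to 164, 169 and 165 RPKM (log2 change 0.17 ± 0.041 (SE), adjusted p = 0.01).

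2 members of low level rose as well. Cox6b2, the testis form of a complex IV subunit (chr7:4703396-4704696, minus strand), had 0.865, 0.773 and 0.680 RPKM in WT control and 1.66, 2.26 and 1.80 with TGFb+IL4 (0.71 ± 0.096 (SE), adjusted p = 0.000421). Cox7a1 had 2.27, 1.09 and 1.58 RPKM (0.72 ± 0.17 (SE), adjusted p = 0.00896). Both reached the filter only through their higher group. Without WT control replicate 1 or 3 or WT TGFb+IL4 replicate 3 the adjusted p of Cox7a1 was 0.0194 to 0.0370, and without WT TGFb+IL4 replicate 1 it fell under the filter and was not tested, while Cox6b2 kept an adjusted p of at most 0.00226 without any one library.

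Among members that fell, subunits of complex III stood beside assembly factors of complex I. Uqcr10, a small subunit of the cytochrome bc1 complex (chr11:4601976-4604345, minus strand), had 689, 711 and 661 RPKM in control and 584, 527 and 564 with TGFb+IL4, without overlap (log2 change -0.30 ± 0.056 (SE), adjusted p = 0.00261). Uqcrq, which lies next to cytochrome b, went from 567, 569.7 and 541 to 484, 443 and 442 (-0.29 ± 0.054 (SE), adjusted p = 0.00229). Uqcr11 and Uqcrc1 fell by 0.18 and 0.17 on the log2 scale (adjusted p = 0.0263 and 0.046). The other 4 complex III members were not called. Among these, Uqcrfs1, the Rieske iron-sulfur protein, had 221, 218 and 221 RPKM in control and 216, 223 and 214 with TGFb+IL4, and Uqcrc2, a core subunit, had 172, 171 and 174 and 177, 186 and 178.

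Ndufaf4, an assembly factor of complex I (chr4:24825230-24832148, plus strand), had 16.5, 16.1 and 19.5 RPKM in control and 13.8, 13.97 and 13.8 with TGFb+IL4 (log2 change -0.30 ± 0.075 (SE), adjusted p = 0.0108). The 3 TGFb+IL4 libraries lay below every other WT and KO library. Ndufaf6 went from 28.6, 33.5 and 36.1 to 23.97, 26.4 and 21.5 RPKM (-0.43 ± 0.095 (SE), adjusted p = 0.00598), the largest fall of any tested member in this comparison. In complex I, the accessory subunits Ndufa12 and Ndufa5 fell by 0.27 each (adjusted p = 0.00821 and 0.00388). Sdhd, a membrane anchor of complex II, went from 227, 233 and 235 to 209, 201 and 195 RPKM (-0.20 ± 0.046 (SE), adjusted p = 0.00726), in the opposite direction to Sdha of the same complex.

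Of the core subunits of complex I, Ndufs7 fell by 0.21 on the log2 scale (adjusted p = 0.0498, with overlapping groups) and Ndufs8 by 0.15 (adjusted p = 0.0452). Sdha of complex II and Uqcrc1 of complex III, both given above, were called too. Other genes chosen by role gave no call. Ndufs1 (log2 change 0.056), Ndufv1 (0.087), Ndufa9 (-0.021), Sdhb (-0.025), Sdhc (0.063), Cox4i1 (0.057), Cox5a (0.044), Cox5b (-0.056), Cox6a1 (-0.0069), Cox6b1 (-0.0089), Cox8a (-0.065), Atp5a1 (0.031), Atp5b (0.027) and Atp5c1 (0.12) did not pass an adjusted p of 0.05. Atp5g1, which holds the largest share of the c subunit, fell by 0.18 on the log2 scale (adjusted p = 0.0196). Cox7a2 fell by 0.16 (adjusted p = 0.0376), while its relative Cox7a2l rose.

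**Figure D3:**
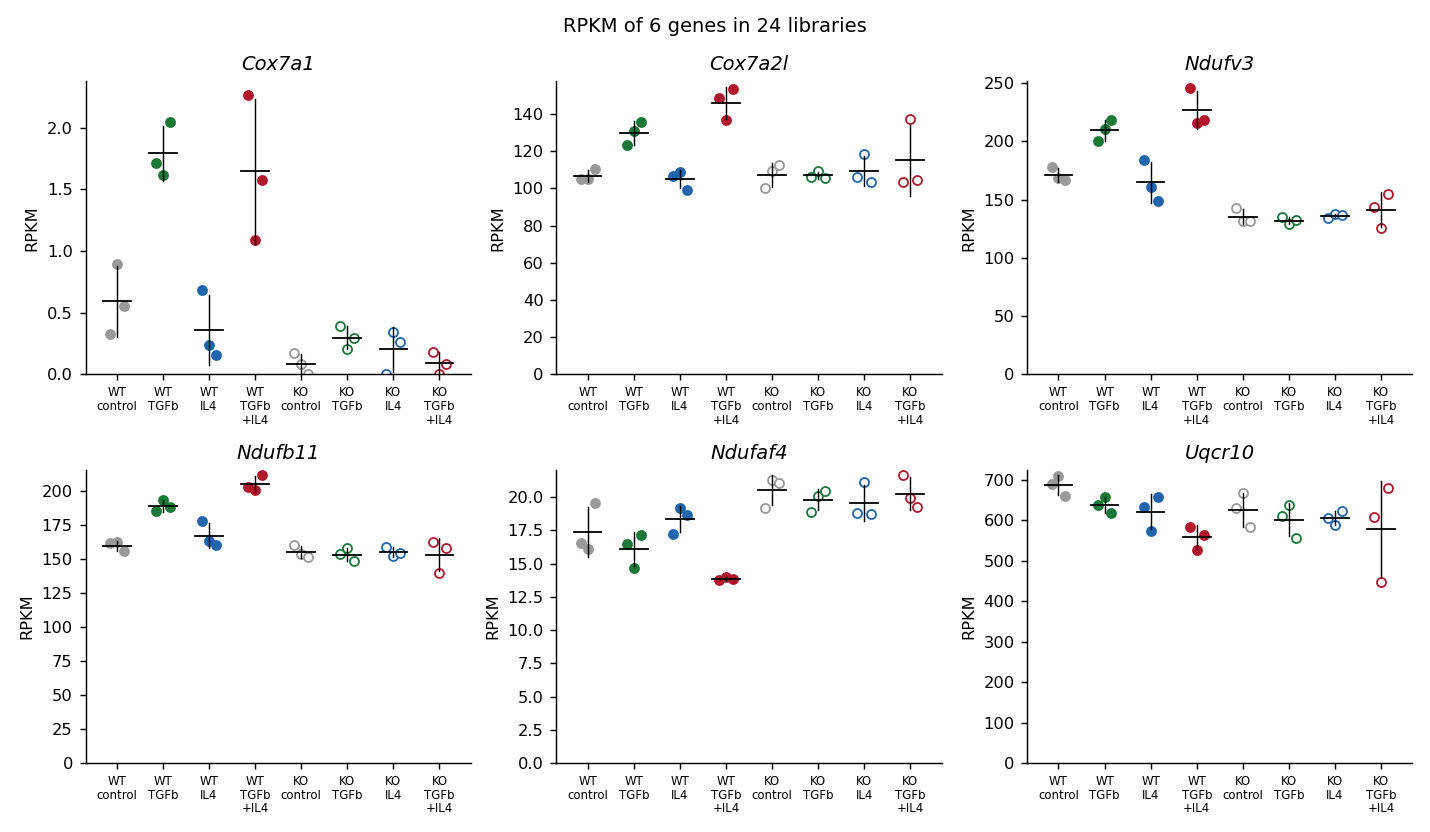
RPKM of Cox7a1, Cox7a2l, Ndufv3, Ndufb11, Ndufaf4 and Uqcr10 in all 24 libraries, with each axis starting at 0. Points are libraries (filled for WT, open for KO), horizontal lines are group means and vertical lines 1 SD (n = 3). Cox7a2l, Ndufv3 and Ndufb11 have their highest group means in WT TGFb+IL4, where Ndufaf4 and Uqcr10 are at 13.78 to 13.97 and 527 to 584 RPKM.

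Against IL4 alone, TGFb+IL4 called 29 of 87 members at an adjusted p under 0.05 (33.3%), 14 higher (23.8% of all genes) and 15 lower (21.1% of all genes), where 44.9% of all genes were called. Cox7a2l rose from 107, 109 and 99.3 to the TGFb+IL4 values given above (log2 change 0.47 ± 0.056 (SE), adjusted p = 0.000178) and Ndufv3 from 184, 161 and 149 (0.46 ± 0.079 (SE), adjusted p = 0.00144). Ndufaf4 fell from 17.2, 19.2 and 18.6 RPKM (-0.38 ± 0.058 (SE), adjusted p = 0.00077), and Ndufaf2 from 57.8, 59.1 and 58.1 to 49.6, 46.7 and 50.9 (-0.25 ± 0.047 (SE), adjusted p = 0.00267). At the study's thresholds 1 member, Cox7a1, was called, against 9.28% of all genes, and it passed the filter only through TGFb+IL4. Without any one of the 3 WT TGFb+IL4 libraries it fell under the filter and was not tested. The count of 29 fell to 18 or 19 without any of these 3 libraries or without WT IL4 replicate 1, and to 17 with moderation without a trend.

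Against TGFb alone, TGFb+IL4 called 12 of 87 members (13.8%), 1 higher (12.3% of all genes) and 11 lower (9.1% of all genes), where 21.4% of all genes were called. The count of 12 fell to 5 or 6 without WT TGFb replicate 1 or 3 or WT TGFb+IL4 replicate 2 or 3, and to 6 with moderation without a trend. None passed the study's thresholds, against 3.03% of all genes, and 25 of the 87 members had an unadjusted p under 0.05, where 35.6% of all genes had. The 11 lower members included Ndufa5 (225, 209 and 238 RPKM with TGFb, 195, 177 and 185 with TGFb+IL4, log2 change -0.27 ± 0.059 (SE), adjusted p = 0.0121), Ndufa12 (-0.26, adjusted p = 0.0134), Ndufaf2 (-0.24, 0.0118) and Ndufaf6 (-0.29, 0.038). Ndufaf6 lost its call when WT TGFb replicate 1 or 2 or WT TGFb+IL4 replicate 1 or 3 was left out (adjusted p 0.0622 to 0.133). Ndufaf2 lost it without WT TGFb replicate 1 (0.0516) and Ndufa12 without WT TGFb+IL4 replicate 2 (0.0515). Cox6b2 was the one higher member, from 0.821, 1.07 and 1.25 to 1.66, 2.26 and 1.80 RPKM (0.50 ± 0.11 (SE), adjusted p = 0.0118).

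In KO cells the cytokines called no member in limma at either threshold. With TGFb, 0.0314% of all genes were called at an adjusted p under 0.05 (all higher) and 1 of 85 members had an unadjusted p under 0.05 (2.57% of all genes). With IL4, 7.39% of genes were called (4.12% higher, 3.26% lower) and 7 members had an unadjusted p under 0.05 (20.6% of all genes), with a lowest adjusted p of 0.0767. Without KO control replicate 3, Atp5k was called lower with IL4 (-0.27, adjusted p = 0.0494). With TGFb+IL4, 4.21% of genes were called (2.75% higher, 1.46% lower) and 3 members had an unadjusted p under 0.05 (14.8% of all genes). At the study's thresholds 0.0105%, 2.51% and 1.92% of genes were called. Without KO TGFb+IL4 replicate 2 the members' count with TGFb+IL4 stayed at 0 and their median change moved from -0.059 to -0.0027.

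Cox7a2l had 99.9, 109 and 112 RPKM in KO control, 106, 109 and 106 with TGFb and 103, 137 and 105 with TGFb+IL4, where the high value is that of replicate 2. Ndufv3 had 143, 132 and 131, 135, 129 and 132 and 143, 125 and 155 RPKM in the same cultures. Ndufb11 had 160.2, 154 and 152, 154, 158 and 148 and 162, 139.9 and 158. For all 3 genes the KO groups overlapped each other.

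Whether the response differed between the genotypes was tested by the interaction, the change with TGFb+IL4 in KO minus that in WT. At an adjusted p under 0.05 it called 1 of 85 members, Ndufb11, where 14% of all genes were called (6.79% higher, 7.19% lower), and none at the study's thresholds (4.18% of all genes), with 12 members at an unadjusted p under 0.05 (28% of all genes). Ndufb11 rose by 0.36 in WT and changed by -0.019 in KO, a difference of -0.38 ± 0.082 (SE), adjusted p = 0.00963. For Ndufv3 the difference was -0.35 (adjusted p = 0.0564), for Cox7a2l -0.36 (0.103), for Ndufaf4 0.28 (0.103) and for Uqcr10 0.17 (0.562). These 4 genes were not called with all 12 libraries.

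Without KO TGFb+IL4 replicate 2, 3 members were called, where 21.7% of all genes were. Ndufb11 had a difference of -0.31 (adjusted p = 0.00716), Cox7a2l of -0.49 ± 0.088 (SE, adjusted p = 0.00218) and Uqcr10 of 0.34 ± 0.10 (SE, adjusted p = 0.0316). Ndufv3 then had -0.26 (adjusted p = 0.0650) and Ndufaf4 0.30 (adjusted p = 0.0884). Without KO TGFb+IL4 replicate 1, Atp5j was called beside Ndufb11 (-0.27, adjusted p = 0.0333), and without replicate 3, Ndufv3 (-0.41, adjusted p = 0.0275).

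**Figure D4:**
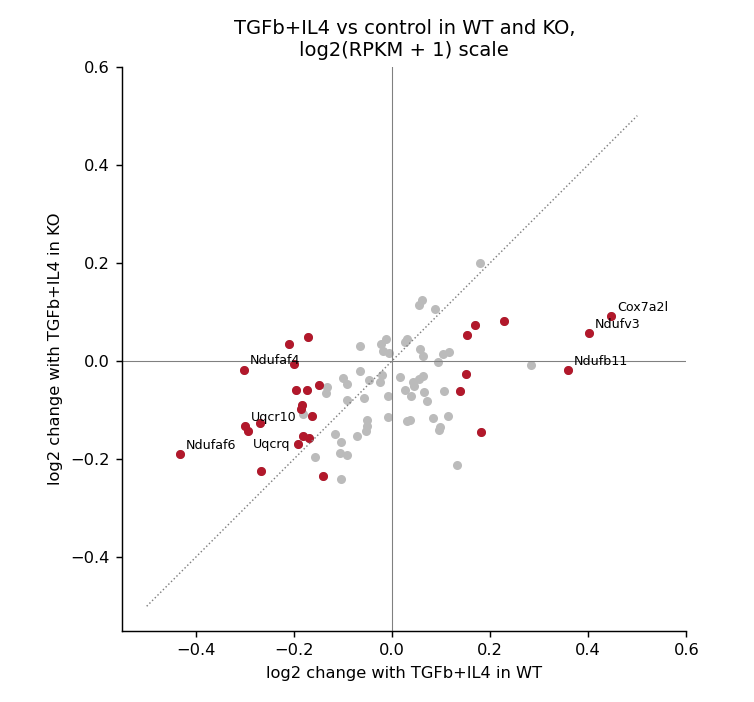
Log2 change with TGFb+IL4 against control in WT (horizontal) and in KO (vertical) for the 85 members tested in both, on equal scales. Red points had an adjusted p under 0.05 in WT (28 genes), and the dotted line marks equal change. Ndufb11, Ndufv3 and Cox7a2l lie at 0.36 to 0.45 in WT and at -0.019 to 0.091 in KO.

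Between the genotypes without cytokine, 1 of 85 members was called at an adjusted p under 0.05, where 12.6% of all genes were called (5.64% higher, 6.98% lower), and none at the study's thresholds (2.46% of genes), with 15 members at an unadjusted p under 0.05 (30.1% of all genes). The called gene was Ndufv3, with 178, 169 and 167 RPKM in WT and 143, 132 and 131 in KO control (log2 difference, KO minus WT, -0.34 ± 0.057 (SE), adjusted p = 0.00783). Its adjusted p was 0.0535 without WT control replicate 1. Beside Ndufv3, Ndufa2 and Ndufaf4 were called without WT control replicate 3, Ndufa2 without KO control replicate 1 and Ndufaf2 without KO control replicate 3. The myeloid markers summed to 0.232 to 1.70 RPKM in KO control against 3.53 to 6.20 in WT control, and Cd8a and Cd8b1 to 14.8 to 16.7 against 24.8 to 26.9, and their part was not tested.

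With TGFb+IL4 in both genotypes, 13 of 86 members were called at an adjusted p under 0.05 (15.1%), 4 higher in KO (18.7% of all genes) and 9 lower (15.8% of all genes), where 34.5% of all genes were called. At the study's thresholds 1 member, Ndufv3, was called, against 8.44% of genes. It had 246, 216 and 219 RPKM in WT and 143, 125 and 155 in KO, without overlap (log2 difference -0.68 ± 0.088 (SE), adjusted p = 0.000912). Ndufb11 was lower in KO (-0.42 ± 0.067 (SE), adjusted p = 0.00232), as was Ndufa1, a small membrane subunit of complex I encoded, like Ndufb11, on the X chromosome (259, 219 and 251 RPKM in WT, 184, 143 and 192 in KO, -0.49 ± 0.12 (SE), adjusted p = 0.0133). The call of Ndufa1 was lost without WT TGFb+IL4 replicate 1 or 3 (adjusted p = 0.0544 and 0.0543). Cox7a2l was lower too, with overlapping groups (-0.35 ± 0.11 (SE), adjusted p = 0.0394), and without KO TGFb+IL4 replicate 2 its difference was -0.48 (adjusted p = 2.57e-04). Cox6b2, counted among the 9, was also lower (-0.88 ± 0.22 (SE), adjusted p = 0.0168), but it passed the filter only through WT and had to differ to be tested, and its adjusted p was 0.0675 and 0.0511 without WT TGFb+IL4 replicate 2 or 3.

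The 4 members that were higher in KO were Ndufaf4, Ndufaf6, Ndufab1 and Sdhd. Ndufaf4 had 21.6, 19.9 and 19.2 RPKM in KO TGFb+IL4, all above the 3 WT values (log2 difference 0.51 ± 0.067 (SE), adjusted p = 0.000952). Ndufaf6 had 31.6, 27.7 and 32.0 RPKM (0.34 ± 0.09 (SE), adjusted p = 0.0227). Ndufab1, the mitochondrial acyl carrier protein, had a difference of 0.21 (adjusted p = 0.0215) and Sdhd of 0.19 (0.0376). The calls of Ndufaf6, Ndufab1 and Sdhd were each lost on leaving out WT TGFb+IL4 replicate 1 or 3 (adjusted p 0.0689 to 0.148). Ndufaf6 and Ndufab1 also lost theirs without KO TGFb+IL4 replicate 1, Ndufaf6 and Sdhd without KO TGFb+IL4 replicate 3, and Sdhd without WT TGFb+IL4 replicate 2. Ndufaf4 was called without any one library, with an adjusted p of at most 0.00722. The count of 13 fell to 4, 8 and 3 without WT TGFb+IL4 replicate 1, 2 and 3. Without KO TGFb+IL4 replicate 2, 22 members were called, where 42.2% of all genes were, and these included all 13 and Cox7a1, which passed the filter only through WT. At the study's thresholds 3 were called in place of 1. The T cell markers summed to 1405 to 1469 RPKM in WT TGFb+IL4 against 1070.5 to 1196 in KO TGFb+IL4, and the myeloid markers to 7.10 to 16.7 against 2.11 to 4.39, and their part was not tested.

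The respiratory chain members were set beside other lists of metabolic and housekeeping genes in WT TGFb+IL4 against control. Over all genes tested in this comparison, 24.4% were higher and 18.5% lower at an adjusted p under 0.05 in limma. Of 77 mitochondrial ribosomal protein genes, 49 were lower and 1 higher at an adjusted p under 0.05, with a median change of -0.20. Of 81 tested cytosolic ribosomal protein genes, 18 were higher and 6 lower, with a median of 0.13. Of 13 glycolysis genes, 8 were lower and none higher (median -0.19). Of 13 genes of the TCA cycle, 1 was higher and 1 lower (median 0.011), and of 11 cytochrome c oxidase assembly genes, 4 were lower (median -0.13). Of 11 regulators of mitochondrial biogenesis, 1 was lower (median -0.085). The lists were described by counts and medians only, and their differences were not tested.

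The mobile and fixed c-type cytochromes, which the symbol rule leaves out, both fell. Cycs, the electron carrier between complexes III and IV, fell by 0.38 ± 0.066 on the log2 scale (SE, adjusted p = 0.00157), and Cyc1, the cytochrome c1 subunit of complex III, fell by 0.19 ± 0.052 (adjusted p = 0.0167). In KO cells the changes were -0.070 for Cycs (adjusted p = 0.731) and 0.043 for Cyc1 (0.868).

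**Figure D5:**
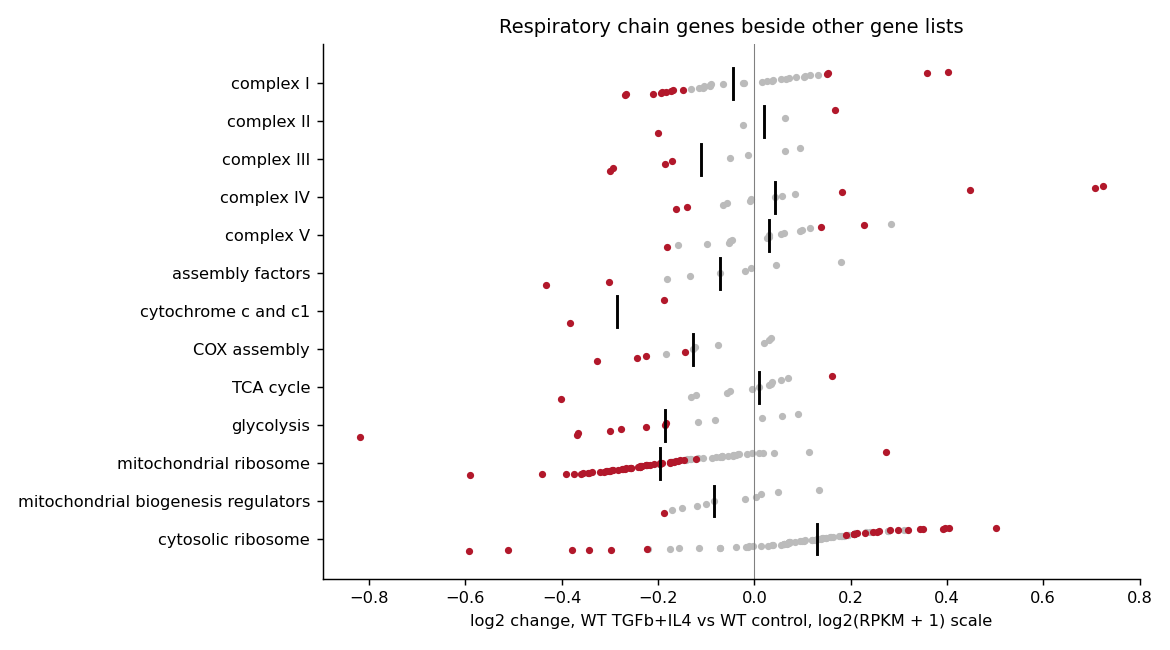
Log2 change in WT TGFb+IL4 against WT control for the tested members of each complex and for the other gene lists. Each point is 1 gene, red where the adjusted p was under 0.05, and black lines are list medians. The medians of complexes I, II, IV and V lie between -0.045 and 0.044, that of complex III at -0.11 and that of the mitochondrial ribosome at -0.20.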

How the data were processed

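RNA-seq and DNase-seq of mouse CD4+ T cells were analysed from processed files. For both assays, Bowtie2 alignment to mm9 was followed by removal of redundant and poorly mapped reads. For RNA-seq, the authors deposited RPKM computed with edgeR for 24089 genes in 24 columns, replicates not pooled. All 24 value columns were used. For DNase-seq, each library had its own MACS narrow-peak calls, of which the authors deposited positions, fold enrichment over background and −log10 p and q. Fold enrichment ranked DHSs within a list, and −log10 values served as filters. Tool versions are not given in the sources used here. These read filters can lower values of very abundant genes and of genes with near-identical copies.

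Genes averaging 1 RPKM or more in the libraries compared were tested with limma 3.58.1 in R 4.3.3 on log2(RPKM + 1), with a trend and only the compared groups. The pseudocount of 1 shrinks the fold changes of low genes. P-values were adjusted over all genes tested (Benjamini-Hochberg). RPKM are not counts, so no count-based test was run, and read depth is unknown. The steps between low values put relative depth at 0.793 to 1.65 times that of WT TGFb+IL4 replicate 3. Columns were read by position, as described in the report. A fit by heading and one with the 8 libraries identified by read counts were alternatives.

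Genes were named as follows: in each comparison the members at an adjusted p under 0.05, up to 4 with the largest rise and 4 with the largest fall; the most abundant member of each complex; core subunits and tissue forms chosen by role; and members at 0 in at least 12 libraries. Further genes were named where a count or contrast needed them, after their values were seen. The members and lists were chosen with earlier results of these data known. The promoter motifs were chosen while the data were being analysed.

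The labels do not say what a replicate number marks, so the fits have no replicate block, and a fit with one was an alternative. Other alternatives were a pseudocount of 0.1, every gene above 0 or a mean of at least 5 RPKM, median-ratio scaling, quantile normalization, all 24 libraries in one fit, no trend, and leaving out each library. For DHSs they were −log10 q of at least 5, a window of 100 bp and lists of equal length. The limma procedure was also run on simulated data, and the outcome is not given here. 2 values without KO TGFb+IL4 replicate 2 (the Cox7a2l share and the ratio of group means) were added after seeing the data. Positions came from GENCODE vM1, which matched 91 of 94 members. The analysis used Python 3.11.15, pandas 2.3.3, numpy 2.4.6, samtools 1.23.1 and matplotlib 3.10.9.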

Additional observations from a re-analysis of the deposited data

Results flagged for a closer look

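Ndufb11, an accessory subunit of complex I, differed between the genotypes in its response to TGFb+IL4. Its log2 change against control was 0.36 ± 0.045 (SE), adjusted p = 0.000261 in WT and -0.019 in KO (adjusted p = 0.945), and the difference, KO minus WT, was -0.38 ± 0.082 (SE), adjusted p = 0.00963 in limma's interaction test over 9756 genes. The 3 WT TGFb+IL4 libraries (204, 201 and 212 RPKM) lay above all other libraries. The difference was -0.31 without KO TGFb+IL4 replicate 2 (adjusted p = 0.00716). Read by heading, it was -0.13 (adjusted p = 0.999). Tamoxifen, the loss of Tgfbr1 and other differences between the 2 sets of mice cannot be told apart in this design.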

How the results depend on the processing

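Of the choices tried, the reading of the columns mattered most. Read by heading, no member passed the study's thresholds in any comparison (0 in place of 1 with WT TGFb, 2 and 1 with WT TGFb+IL4 against control and IL4, and 1 in KO against WT with TGFb+IL4), and 7 log2 changes turned sign: Ndufs8 with TGFb (0.0013), Cox6b2 (-0.014), Ndufaf2 (0.077) and Ndufa5 (0.076) with TGFb+IL4 against IL4, and Ndufa5 (0.065), Ndufa12 (0.086) and Ndufaf2 (0.087) against TGFb. With the 8 identified libraries alone, 4 of the 9 members called at an adjusted p under 0.05 with TGFb were called again, 14 of 30 with TGFb+IL4 against control, 15 of 29 against IL4 and 7 of 12 against TGFb. In the same order, that fit called 4, 16, 16 and 15 members in all. Of all genes it called 1474, 3591, 3618 and 2468, where the main fit called 1976, 4211, 4412 and 2107.

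The counts at the study's thresholds rest on few genes. In WT TGFb against control (1), 0 were called with every gene above 0 tested, with a mean of at least 5 RPKM and with all 24 libraries in one fit. In WT TGFb+IL4 against control (2), 1 was called with every gene above 0, with median-ratio scaling and without a trend, and 0 with a mean of at least 5, quantile normalization or all 24 libraries. Against IL4 (1), 2 were called with a pseudocount of 0.1, and 0 with every gene above 0, a mean of at least 5, median-ratio scaling or all 24 libraries. In KO against WT with TGFb+IL4 (1), 2 were called with every gene above 0. A minimum mean of 5 RPKM removes Cox7a1 and Cox6b2 by construction, and for the other settings the cause was not tested. At an adjusted p under 0.05 with no minimum fold, the counts were 9, 30, 29, 12 (WT TGFb+IL4 against TGFb), 1 (KO against WT control), 13 (KO against WT with TGFb+IL4) and 1 (interaction). Leaving out 1 library gave 4 to 7, 15 to 30, 18 to 23, 5 to 15, 0 to 3, 3 to 22 and 1 to 3, in the same order. At the study's thresholds it gave 0 to 1 for WT TGFb, 1 to 2 for TGFb+IL4 against control, 0 to 1 against IL4 and 1 to 3 for KO against WT with TGFb+IL4, and 0 for the rest. Members with a DHS at the start numbered 80 to 84 under every DHS alternative.

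The samples share only a replicate number. Once group means were subtracted, same-numbered libraries of a genotype correlated between -0.089 and 0.55 in WT and between -0.30 and 0.42 in KO, and a library correlated best with its own number in 17 of 36 cases in WT and 21 of 36 in KO. With the replicate block, WT TGFb+IL4 against control had 1 member at the study's thresholds in place of 2 (Cox7a1, adjusted p = 0.0158), and that count changed in no other comparison within a genotype or in the interaction. At an adjusted p under 0.05 the block gave 10 in place of 9 with WT TGFb (9 shared), 25 in place of 30 with TGFb+IL4 against control (23 shared), 27 in place of 29 against IL4 (25 shared) and 9 in place of 12 against TGFb (9 shared), and the same count elsewhere. The 7 members not called with the block in TGFb+IL4 against control were Atp5h, Cox7a2, Cox7c, Ndufb5, Ndufb8, Ndufs8 and Uqcrc1.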
